A study of Drosophila melanogaster with 3 samples.

Results

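The nuclear genes for transfer RNA (tRNA) of Drosophila melanogaster were taken as all genes that the dm6 annotation (Ensembl release 115) gives the biotype tRNA outside the mitochondrial genome, which were 290 of 17947 nuclear genes. They were set against binding regions of Broad, the product of br, from chromatin immunoprecipitation sequencing of whole wandering larvae of the third instar. The animals were a transgenic line that stably carried a br-RE protein with GFP at its C terminus. An anti-GFP antibody was used, males and females were pooled, age is given as unknown, and the chromatin was sonicated to 200 to 800 bp, per the labels. The labels give 3 biological replicates of 1 group, with the numbers 2, 3 and 4, and no other condition, so all comparisons were between classes of genes or positions. Whole larvae mix all tissues, so a region could not be placed in a tissue, and the tag marks the product of a transgene. A gene was counted with a region when the region's summit lay within 1 kb of the gene start. The regions came from 4 kinds of list: the 2533 optimal regions that the authors kept across replicates, the 27389 regions called on the pooled replicates, the 30000 regions of each replicate, which reach into background strength, and the 2533 strongest regions of each replicate, called top regions here. Ranks are by the authors' signal, with rank 1 the strongest in a list. Of the tRNA genes, 167 lay over 2 kb from any protein-coding transcription start site (TSS) and are called isolated here, and 123 lay within 2 kb of one.

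A tRNA carries an amino acid to the ribosome and pairs with the codon through its anticodon. tRNA genes are transcribed by RNA polymerase III from a promoter inside the gene, made of an A box and a B box. The factor TFIIIC binds these boxes and places TFIIIB, which holds Brf and Bdp1, just upstream of the start. Broad belongs to the zinc finger proteins induced by ecdysone, the steroid hormone that starts metamorphosis. The genes are short and many are copies of each other. Their median length was 73 bp, the shortest had 71 bp and the longest 186 bp, and 16 had an annotated intron. The 290 genes held 95 distinct sequences, and 238 genes shared their sequence with at least 1 other. When starts at most 2 kb apart were joined, 199 genes fell into 69 clusters of up to 7 genes and 91 stood alone.

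The sequences below are shown because these 4 genes carried optimal regions, and because their copy number bears on how reads can be placed: each of the 4 sequences was held by 1 gene only. Each is printed on the gene strand with 25 bases before the gene and 10 bases after it, from RefSeq's dm6 sequence. The capitals mark the A box, which comes first, and the B box word GTTCNANNC.
tRNA:Gln-TTG-2-1, chrX:3427442-3427548, minus strand: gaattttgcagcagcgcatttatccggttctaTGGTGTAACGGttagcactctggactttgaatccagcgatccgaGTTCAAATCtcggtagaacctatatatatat
tRNA:Lys-TTT-1-1, chr2L:8290702-8290809, plus strand: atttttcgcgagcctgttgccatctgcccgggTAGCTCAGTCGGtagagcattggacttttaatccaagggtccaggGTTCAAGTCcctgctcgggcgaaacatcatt
tRNA:Tyr-GTA-1-8, chr3R:8669071-8669199, minus strand: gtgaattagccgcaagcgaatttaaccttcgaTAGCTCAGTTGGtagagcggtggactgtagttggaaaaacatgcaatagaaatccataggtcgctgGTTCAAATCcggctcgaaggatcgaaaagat
tRNA:Leu-CAA-2-2, chr3L:13214084-13214243, plus strand: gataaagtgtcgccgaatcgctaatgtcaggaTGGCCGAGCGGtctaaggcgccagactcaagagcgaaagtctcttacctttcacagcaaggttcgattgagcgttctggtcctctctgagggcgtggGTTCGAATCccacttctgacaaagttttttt
The B box word was found in 271 of the 290 genes (93.4%), against 3.45% of windows of equal length that ended 100 bp upstream of them. The stricter word GTTCGANTC was in 112 genes (38.6%), against 1.72% of these windows. An A box was in 269 genes (92.8%), against 3.10%. Most of the genes thus carried both internal boxes.

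The next sequences are the 201 bases around 2 of the optimal summits, shown because these stretches and not the tRNA genes lay under the summits. The capitals mark words ascribed to Broad proteins (CTATTT and AAACTA, and also GTAAACA), sought on both strands.
Summit at tRNA:Tyr-GTA-1-8, chr3R:8669294-8669494, plus strand: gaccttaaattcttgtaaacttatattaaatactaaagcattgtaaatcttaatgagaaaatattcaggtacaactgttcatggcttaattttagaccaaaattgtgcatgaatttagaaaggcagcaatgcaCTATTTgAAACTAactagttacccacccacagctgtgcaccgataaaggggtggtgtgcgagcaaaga
Summit at tRNA:Leu-CAA-2-2, chr3L:13213486-13213686, plus strand: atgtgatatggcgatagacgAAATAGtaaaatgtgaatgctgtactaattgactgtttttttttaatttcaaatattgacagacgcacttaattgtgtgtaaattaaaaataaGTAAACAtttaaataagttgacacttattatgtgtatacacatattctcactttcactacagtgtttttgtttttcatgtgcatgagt
The first holds CTATTT and AAACTA side by side. The second holds CTATTT, on the minus strand, and GTAAACA. The window at tRNA:Gln-TTG-2-1 held none of these words, and that at tRNA:Lys-TTT-1-1 held none either.

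Strong Broad regions lay near few tRNA genes. In the optimal list 19 of the 290 genes had a summit within 1 kb (6.55%, exact 95% interval 3.99 to 10), while 12.1% of 13968 protein-coding genes had one at the gene start. Of the isolated tRNA genes 10 of 167 had one (5.99%, 2.91 to 10.7), against 1.67% of all genome positions over 2 kb from a protein-coding TSS on the 5 large arms. In the whole pooled list 185 genes had a summit (63.8%, 58.0 to 69.3), against 53.1% of protein-coding genes. There 106 of the isolated genes had one (63.5%, 55.7 to 70.8), against 21.5% of positions. The intervals cover counting error only, and genes of 1 cluster can share a region.

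In the top regions, isolated tRNA genes were above the positions in each replicate, and the groups' replicate values did not overlap. In replicates 2, 3 and 4, 10, 20 and 7 of the 167 isolated genes had a top summit, which is 5.99%, 12% and 4.19%. The positions had 1.79%, 1.27% and 1.85% in the same replicates. The mean was 7.39% ± 4.08 for isolated tRNA genes and 1.64% ± 0.318 for positions (SD, n = 3 each), a difference of 5.75 ± 4.39 percentage points. An exact two-sided sign-flip permutation test over the replicates gave p = 0.25, the smallest that 3 replicates allow, and 0.25 after adjustment over 5 comparisons, so no comparison of this design could pass a threshold of 0.05. Replicate 3 gave the largest value, and without it the mean difference was 3.27 points. With 50% as many top regions it was 1.20 points and not of 1 sign in all replicates (exact permutation p = 0.5).

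Against protein-coding genes the tRNA genes were lower in each replicate in the top regions. The tRNA genes with a top summit numbered 21, 35 and 13 in replicates 2, 3 and 4, which is 7.24%, 12.1% and 4.48%. Protein-coding genes had 9.74%, 14.7% and 11.2%. The ranges overlapped, since replicate 3 gave more for tRNA genes than replicate 2 gave for protein-coding genes. The mean was 7.93% ± 3.84 for tRNA genes and 11.9% ± 2.54 for protein-coding genes (SD, n = 3), a difference of -3.95 ± 2.41 points (exact permutation p = 0.25, adjusted p = 0.25), or -2.56 points without replicate 4. With all 30000 regions of each replicate the difference turned round to 6.64 points. Then 195, 210 and 112 tRNA genes had a summit in replicates 2, 3 and 4, which is 67.2%, 72.4% and 38.6%, against 57.5%, 57.5% and 43.3% of protein-coding genes. The isolated tRNA genes had 64.7%, 71.3% and 37.1%, against 20.0%, 21.8% and 33.3% of positions. Replicate 4 stood apart when all regions were used: it had the fewest tRNA genes with a region and the most positions with one.

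**Figure D1:**
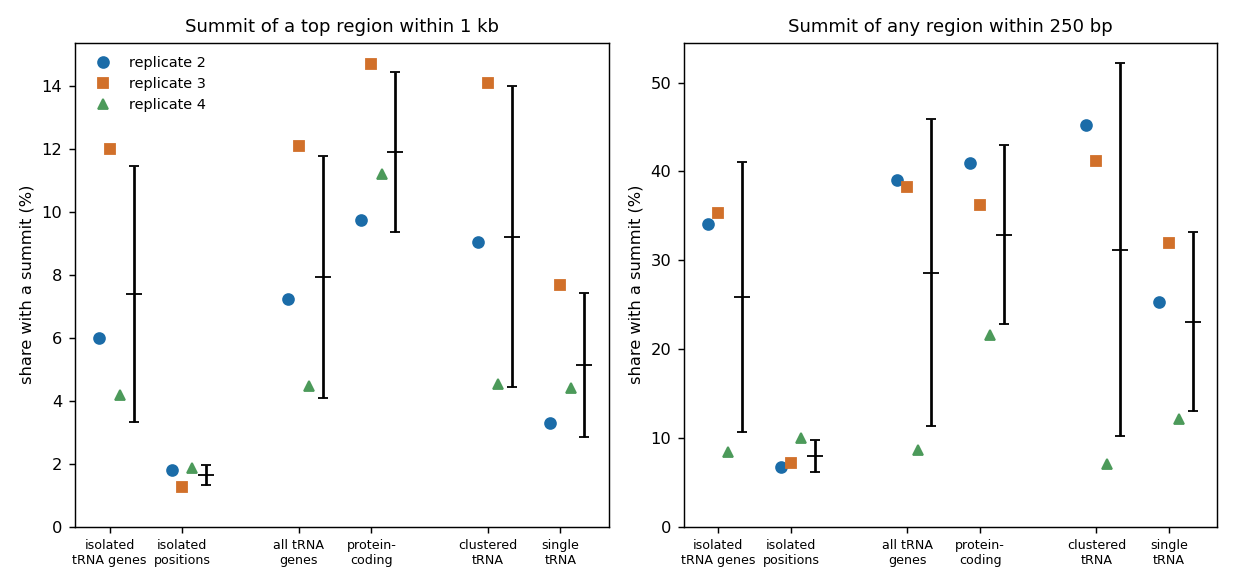
Share of genes or positions (%) with a summit in each replicate, for the top regions within 1 kb (left) and for any region within 250 bp (right), with the mean and SD over 3 replicates as bars. On the left isolated tRNA genes lie between 4.19% and 12%, above the positions in each replicate; on the right replicates 2 and 3 lie at 34.1% and 35.3% for isolated tRNA genes and replicate 4 at 8.38%.

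Isolated tRNA genes and those near a protein-coding TSS differed in their share of strong regions by less than the spread between replicates. Isolated tRNA genes had 5.99%, 12% and 4.19% in replicates 2, 3 and 4, against 8.94%, 12.2% and 4.88% of the 123 genes near a TSS. The difference was -1.29 ± 1.46 points (SD, n = 3, exact permutation p = 0.25, adjusted p = 0.25), and it moved with the limit, to -5.92 points at 1 kb and 0.892 points at 5 kb. With 50% as many top regions it was -3.15 points, and without replicate 2 it was -0.453 points. In the optimal list 10 isolated genes (5.99%) and 9 genes near a TSS (7.32%) had a summit. A top summit in all 3 replicates was found at 2 of the isolated genes and 5 of those near a TSS, a difference that was not tested. Over all tRNA genes 7 had one in 3 replicates, 9 in 2, 30 in 1 and 244 in none. Overlap between replicates was not counted for protein-coding genes or positions, so these counts have no background share beside them.

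Clustered tRNA genes had a top summit more often than single ones in each replicate, with a margin in replicate 4 of less than 1 gene's share. Clustered genes had 9.05%, 14.1% and 4.52% in replicates 2, 3 and 4, and single genes 3.30%, 7.69% and 4.40%. The values of the groups overlapped. The means were 9.21% ± 4.78 for clustered and 5.13% ± 2.29 for single genes (SD, n = 3), a difference of 4.08 ± 3.44 points (exact permutation p = 0.25, adjusted p = 0.25). It was 0.587 points with 50% as many top regions and 1.39 points within 500 bp, without the same sign in every replicate (exact permutation p = 0.75 for each). Among isolated genes alone, clustered genes averaged 8.77% ± 5.48 and single genes 4.40% ± 1.09, a difference of 4.37 ± 4.43 points (SD, n = 3, exact permutation p = 0.25, adjusted p = 0.25). That difference turned round to -1.68 points with 50% as many top regions, was 0.32 points within 500 bp, and was 1.93 points without replicate 3. Genes of a cluster are not independent, as 1 region can count for several of them. In the pooled list 137 of 199 clustered genes (68.8%) and 48 of 91 single genes (52.7%) had a summit. With all regions of each replicate, clustered genes had 73.4%, 78.9% and 34.2% in replicates 2, 3 and 4. Single genes had 53.8%, 58.2% and 48.4%, so replicate 4 went the other way.

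The 5 largest clusters differed in what lay near them. A cluster of 7 genes on chromosome arm 2R (2R:13430282-13432794), with 5 tRNA:Ile-AAT genes and 2 tRNA:Leu-CAA genes, lay inside ATP8A within 360 bp of a protein-coding TSS at its nearest gene. All 7 had a pooled summit within 1 kb and 6 had one within 250 bp, yet its best pooled rank was 6802 and none had a top region. The cluster of 7 with iMet, Glu-TTC and Glu-CTC genes (2R:19725620-19728958), in which iMet is the initiator tRNA, was isolated, with its nearest gene 11615 bp from a protein-coding TSS, and had an optimal region of rank 1689 that counted for 3 genes. The other cluster of 7, with Arg-TCG and Ser-CGA genes (X:14014814-14017284), had 2 genes with a pooled summit, at best of rank 21893, and none within 250 bp. The 6 Cys-GCA and Lys-CTT genes inside Cht7 (3L:3095737-3097590), a chitinase gene, all had a pooled summit, of best rank 4027, and 5 had a top region in replicate 3 only. The 6 Asn-GTT and Arg-ACG genes at 3R:8139533-8141042 had 4 with a pooled summit, 1 of them within 250 bp.

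The 19 genes with an optimal summit shared 13 regions. Their ranks ran from 167 to 2514 of 2533 with a median of 1386, so they were spread over the list. No summit lay inside a tRNA gene, 7 lay upstream of the nearest start and 6 downstream. The summit was within 250 bp of a start for 4 regions and beyond for 9. A protein-coding TSS lay within 1 kb of 6 summits and farther from the other 7. Matched within 200 bp, 10 of the regions were found in all 3 replicates and 5 were among the top regions of all 3. The authors kept the optimal regions across these same replicates, so matches follow in part from that choice. The same match was not counted for the other optimal regions.

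The strongest was at tRNA:Tyr-GTA-1-8, a tyrosine tRNA gene inside CG8036, with the summit 220 bp upstream of it and 224 bp from a TSS of CG8036. Its signal was 169, 91.6 and 69.5 in replicates 2, 3 and 4, with ranks of 121, 187 and 391. It thus ranked in the strongest part of each list, but it could be assigned to either start. The second was at tRNA:Gln-TTG-2-1, an isolated glutamine tRNA gene on X inside CG12535, with the summit 228 bp upstream of the gene and 8056 bp from the nearest protein-coding TSS. Its signal was 142, 75.6 and 72.8 in replicates 2, 3 and 4, with ranks of 194, 297 and 355. Among the isolated genes it held the strongest region, and the replicate summits lay within 23 bp of the pooled one. Next came a region 124 bp upstream of the histidine gene tRNA:His-GTG-1-3, lay 126 bp from a TSS of CG8490 and had ranks of 412, 372 and 791.

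The other isolated genes with an optimal region were reached from farther away or less evenly. The region at tRNA:Lys-TTT-1-1, a lysine gene inside Btk, which encodes a tyrosine kinase, lay 357 bp downstream of the start and had ranks of 1153, 1551 and 815 in replicates 2, 3 and 4 and signals of 64.9, 39.2 and 45.5. At tRNA:Glu-CTC-3-1 the region had ranks of 852, 10835 and 1080, so it was weak in replicate 3. For tRNA:Leu-CAA-2-2 they were 844, 5168 and 2812, a top region in replicate 2 alone. At tRNA:Glu-TTC-1-5 the ranks were 3751, 1550 and 1542, so that replicate 2 was outside the top. The region at tRNA:Thr-AGT-1-1, a threonine gene inside tai, which encodes a coactivator of the ecdysone receptor, lay 876 bp downstream and had ranks of 4014, 2258 and 4284. At tRNA:Ala-TGC-2-1 the nearest matched regions had ranks of 10875 and 3062 in replicates 2 and 3, with no match in replicate 4. A stronger region of replicate 2, of rank 1252, also had its summit within 200 bp of the optimal one. Replicate 4 had a region of rank 2592 just beyond that distance.

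The other regions lay near protein-coding TSSs. That at tRNA:Val-TAC-1-1 had ranks of 416 and 280 in replicates 2 and 3 and no match in replicate 4, 162 bp from a TSS of CG46456. At tRNA:Val-CAC-2-5 the region, 421 bp from a TSS of the nicotinamidase gene Naam, was top in all 3 replicates, with ranks of 2079, 1985 and 1256. The region at tRNA:Gln-TTG-1-3, with its summit 123 bp downstream, had ranks of 2277 and 1229 and no match in replicate 4. At tRNA:Leu-TAA-2-1 the ranks were 6590, 952 and 14481, so replicate 3 alone held it among the top.

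**Figure D2:**
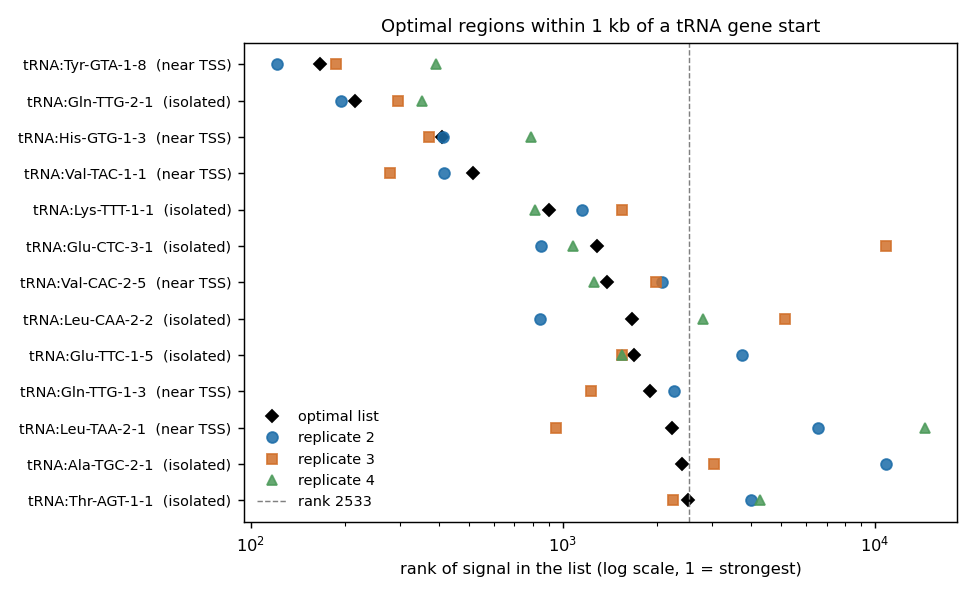
Rank by signal (log scale, 1 is the strongest) of the 13 optimal regions within 1 kb of a tRNA gene start. Each is named by its nearest tRNA gene, with ranks for the optimal list and for the nearest matched region of each replicate. The regions at tRNA:Tyr-GTA-1-8, tRNA:Gln-TTG-2-1 and tRNA:His-GTG-1-3 rank between 121 and 791 in every replicate, whereas most regions below them fall outside rank 2533, the dashed line, in at least 1 replicate.

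Over all regions of the replicate lists, summits were densest right at the tRNA genes in replicates 2 and 3 and not in replicate 4. A summit of any region lay within 250 bp of the start of 113, 111 and 25 tRNA genes in replicates 2, 3 and 4, which is 39.0%, 38.3% and 8.62%. Protein-coding starts had 41.0%, 36.2% and 21.6%. In the pooled list the counts were 104 of 290 tRNA genes (35.9%, exact 95% interval 30.3 to 41.7), against 35.5% of protein-coding starts. Of the isolated tRNA genes 57, 59 and 14 had one (34.1%, 35.3% and 8.38%), against 6.76%, 7.15% and 10% of positions, and 55 in the pooled list (32.9%), against 6.86% of positions. Replicates 2 and 3 thus gave like shares, while the replicate 4 share lay below that of positions in the same replicate. The mean difference of isolated tRNA genes minus positions was 18.0 ± 17.0 points (SD, n = 3, exact permutation p = 0.5, adjusted p = 0.667 over 4 comparisons), and without replicate 4 it was 27.8 points. The window of 250 bp with all regions was chosen after seeing the data.

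When each region was counted once, at its nearest tRNA gene, the density of summits per kb within 250 bp was 2.13, 2.17 and 0.583 times that from 251 to 1000 bp in replicates 2, 3 and 4. For protein-coding starts the ratios were 3.06, 2.41 and 1.91, so replicate 4 was lowest there too, but above 1. The isolated tRNA genes had ratios of 1.60, 1.86 and 0.559. The pooled list gave 2.20 and the optimal list 0.901 for tRNA genes, against 2.87 and 5.57 for protein-coding starts. The peak at the tRNA genes was thus seen over all regions in replicates 2 and 3 and in the pooled list. The optimal ratio rested on 4 regions within 250 bp and 9 farther out. So few regions could not show whether the optimal ones share the peak. The median summit within 250 bp lay 18.0, 31.0 and 58.0 bp upstream of the start in replicates 2, 3 and 4.

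**Figure D3:**
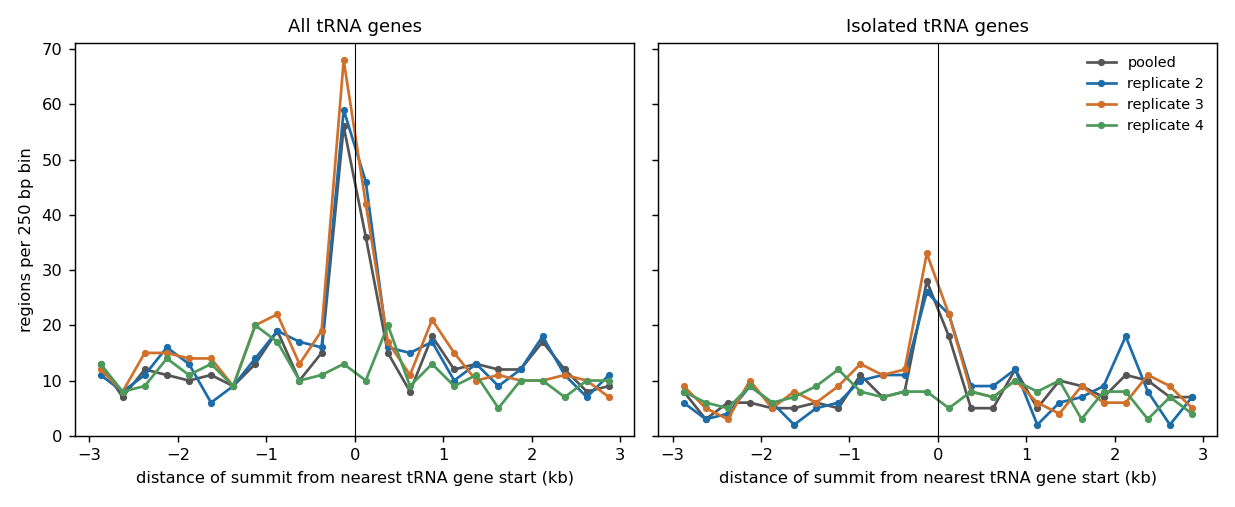
Number of regions per 250 bp bin by the distance of the summit from the nearest tRNA gene start (kb, upstream at the left), for all tRNA genes and for isolated ones, in the pooled list and the 3 replicate lists. At all tRNA genes the bin just upstream of the start holds 59, 68 and 13 regions in replicates 2, 3 and 4, so that only replicates 2 and 3 show a peak there.

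The regions on the tRNA genes had ranks from the head to the foot of each list. The genes with a pooled summit within 250 bp had a median signal of 31.8 and a median rank of 13898, and the median signal of all pooled regions was 32.0. In replicates 2, 3 and 4 the median signals were 15.5, 17.4 and 12.1 at these genes, and 14.1, 13.9 and 11.5 over all regions. A top region lay there at 6, 13 and 4 of the genes, which is 5.31%, 11.7% and 16% of them, and genes can share a region. Counted by region, each at its nearest gene, 5 of 105, 10 of 110 and 4 of 23 regions within 250 bp were top. Top regions made up 8.44% of each replicate list. Isolated genes had a summit of any region within 250 bp less often than genes near a TSS in each replicate. The shares were 34.1%, 35.3% and 8.38% against 45.5%, 42.3% and 8.94%. The mean difference was -6.30 ± 5.45 points (SD, n = 3, exact permutation p = 0.25, adjusted p = 0.667). Clustered genes exceeded single ones in replicates 2 and 3 by 20.0 and 9.34 points and differed by -5.05 points in replicate 4 (mean difference 8.08 ± 12.5, exact permutation p = 0.5, adjusted p = 0.667).

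Replicates 2 and 3 shared 65 tRNA genes with a summit within 250 bp, and 57 of these had none in replicate 4. Over all 290 tRNA genes only 25 (8.62%) had one in replicate 4, so the lack at most of the 65 was near the background. The presence at the other 8 was near that share too. In all 3 replicates these 8 genes had one, and 10 had one in replicate 4 only. Such overlaps were not counted for protein-coding genes or positions, so no background share stands beside the 65, the 8 or the 10. The 8 were tRNA:Tyr-GTA-1-8, tRNA:Gln-TTG-2-1, tRNA:His-GTG-1-3, tRNA:Ser-AGA-2-4, tRNA:Ile-AAT-1-3, tRNA:iMet-CAT-1-3, tRNA:Gln-CTG-2-5 and tRNA:Leu-TAA-4-1, and they are named for this count after their values were seen. The first 3 carried the strongest regions described above. At tRNA:Ser-AGA-2-4, a serine gene, the ranks were 4103, 11481 and 11119 in replicates 2, 3 and 4. At the isolated initiator gene tRNA:iMet-CAT-1-3 they were 23637, 12747 and 13183. Its strongest summits within 250 bp lay 131 bp upstream of the start in replicate 2 and 176 and 178 bp downstream in replicates 3 and 4, so that of replicate 2 was farther from the others than the 200 bp used to match regions.

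By amino acid, 9 of 22 families had a gene with an optimal summit. They were Glu (4 of 19 genes), Gln (3 of 12), Ala (2 of 17), His (2 of 5), Leu (2 of 22), Tyr (2 of 10), Val (2 of 15), Lys (1 of 19) and Thr (1 of 17). The 7 genes with a top summit in all 3 replicates belonged to His (2), Tyr (2), Gln (1), Lys (1) and Val (1). The His and Tyr pairs each shared 1 region, so the genes of a family were not separate cases. The Arg, Gly and Ser families, with 26, 20 and 20 genes, had none, which is near the background for families of this size, since 6.55% of all tRNA genes had one.

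A pooled summit within 250 bp was found in each of the 22 families. In the pooled list 8 of 11 Ile genes (72.7%) and 7 of 10 Asn genes (70.0%) had one, against 35.9% of all tRNA genes. At the Ile genes replicates 2, 3 and 4 gave 8, 8 and 1, and at the Asn genes 4, 5 and 0. The lowest shares in families of over 5 genes were 15.4% for Arg (4 of 26), 15.8% for Lys (3 of 19) and 16.7% for Met (1 of 6). Of the 11 Ile genes 8 were clustered and of the 10 Asn genes 9, so a few clusters carried these shares. The families are small and were not tested against each other.

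**Figure D4:**
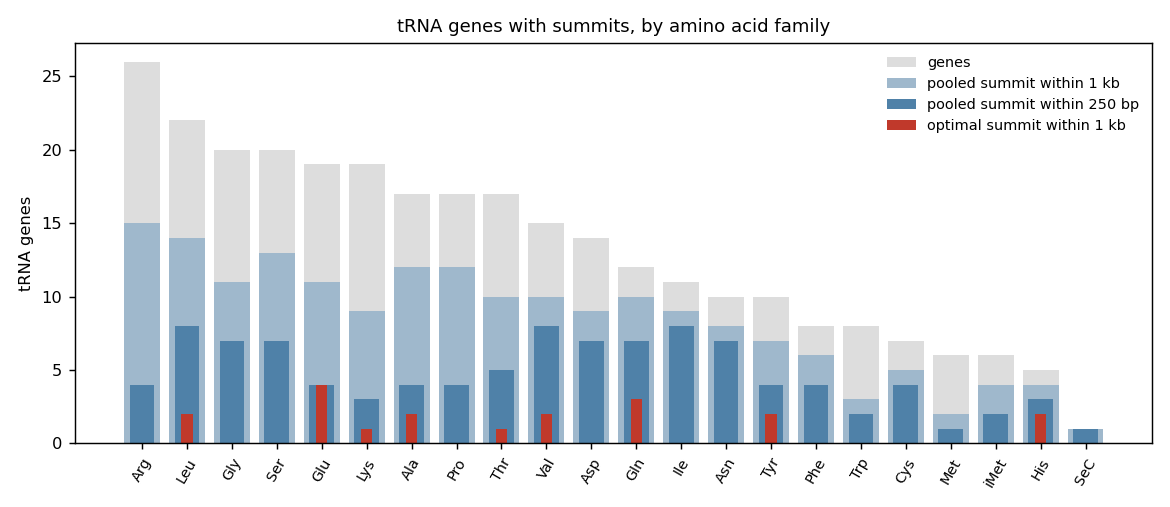
Number of tRNA genes per amino acid family (SeC is selenocysteine, iMet the initiator), with those that had a pooled summit within 1 kb, a pooled summit within 250 bp or an optimal summit within 1 kb as narrower bars. Optimal summits occur in 9 of 22 families, with at most 4 genes in 1 family, whereas pooled summits within 1 kb occur in all 22.

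Copies and host genes were described next. The 52 genes whose sequence no other gene held had an optimal summit in 8 cases, against 11 of the 238 with a shared sequence. Over all tRNA genes 6.55% had one, with the first group above this share and the second below it. Top summits numbered 9, 5 and 4 among these 52 in replicates 2, 3 and 4, against 12, 30 and 9 among the other 238. By share, the 52 were thus higher in replicates 2 and 4 and lower in replicate 3, and the difference was not tested. Within 250 bp in the pooled list the shares were 34.6% of genes with their own sequence and 36.1% of those with a shared one. How the authors placed reads that match several copies is not given in the sources used here. A summit at 1 of several identical genes can thus owe reads to another. Genes with their own sequence can also have nearly identical relatives.

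Inside a protein-coding gene lay 134 tRNA genes, of which 7 had an optimal summit, against 12 of the 156 outside. Both shares were near the 6.55% of all tRNA genes. EcR, which encodes the ecdysone receptor, held the most, with 13 tRNA genes, all isolated and all clustered. None had an optimal summit, where 6.55% of all tRNA genes had one, so a count of 0 among 13 is near the background. A pooled summit lay within 1 kb of 11 (84.6%, against 63.8% of all tRNA genes) and within 250 bp of 6 (46.2%, against 35.9%). Top summits lay near 2, 5 and 0 of them in replicates 2, 3 and 4, where 7.24%, 12.1% and 4.48% of all tRNA genes had one. The 2 genes shared 1 region, and the 5 genes shared 1 region, so these are not separate cases. At tRNA:Arg-ACG-1-1 in EcR the rank was 1719, 11145 and 8642 in replicates 2, 3 and 4. At tRNA:Asn-GTT-1-4, in a group of 5 genes, it was 10330 and 2177 in replicates 2 and 3, and replicate 4 had no region within 1 kb. The 9 tRNA genes in Ptp61F, which encodes a tyrosine phosphatase, had 1 with a pooled summit, and the 8 in ATP8A, for a phospholipid transporter, all had one. Of the 8 in ATP8A 7 were clustered, most of them near the same pooled region, and 0 were isolated. The 9 in Ptp61F were copies of 1 sequence, so read placement bears on them, and the contrast was not tested. The pooled share within 1 kb ran from 41.7% of 24 genes on X to 70.4% of 98 on 2R.

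No region of any list lay within 1 kb of 35 of the 290 tRNA genes, among them 25 of the 167 isolated ones. The first 4 of these in alphabetical order were tRNA:Arg-TCG-3-2, tRNA:Arg-TCG-3-3 and tRNA:Arg-TCG-3-4 on X and tRNA:Arg-TCT-2-1 on 2L. A region in all 3 replicate lists was found at 65 genes, 36 of them isolated. Neither count was made for protein-coding genes or positions, so no background share stands beside them. No isolated gene without an optimal region had a top summit in all 3 replicates. At the limit of 1 kb the nearest optimal summit was 951 bp from tRNA:Glu-TTC-1-4, which counted, and 1095 bp from tRNA:Glu-CTC-2-1, which did not. At the limit of 2 kb tRNA:Arg-ACG-1-4 lay 1997 bp from a protein-coding TSS and tRNA:Trp-CCA-2-5 lay 2038 bp from one.

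Other genes of RNA polymerase III and its products were counted the same way, at their gene starts. Of 9 other genes transcribed by the enzyme, such as the U6 spliceosomal RNA genes, 0 had an optimal summit, and 0 among 9 is near the background. A pooled summit lay near 5 of the 9 (55.6%), against 53.1% of protein-coding genes and 21.5% of positions over 2 kb from a protein-coding TSS. Of the 9 genes 5 lay over 2 kb from such a TSS, so neither background covers them all. snRNA:U6:96Ab and snRNA:U6:96Ac shared the pooled region of rank 3845. Within 250 bp replicates 2, 3 and 4 had 5, 4 and 1 of the 9. The 5S rRNA genes, which lie in a tandem array, had 0 of 96 with an optimal summit and 1 with a pooled one. All 96 lay over 2 kb from a protein-coding TSS, where 1.67% of positions had an optimal and 21.5% a pooled summit. How reads were placed among copies is not known here, so these counts say little about binding at the array. The spliceosomal RNA genes transcribed by RNA polymerase II had 2 of 24 with an optimal summit, snRNA:U4:39B (rank 1468) and snRNA:U5:63BC (rank 2187). The snoRNA genes, whose RNAs guide rRNA modification, had 20 of 269 (7.43%). The share was 8.33% for these spliceosomal RNA genes, against 6.55% of tRNA genes and 12.1% of protein-coding genes. Within 250 bp in the pooled list 35.9% of tRNA genes had a summit, against 44.4% of the other genes of RNA polymerase III, 29.2% of the RNA polymerase II spliceosomal RNA genes and 12.6% of snoRNA genes.

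Among the protein-coding genes that make or use tRNA, a minority of each list had an optimal region near the start. Of 14 genes of the polymerase and its factors 3 had an optimal summit (21.4%, against 12.1% of all protein-coding genes). They were led by Bdp1 (rank 177) and Brf (rank 270), subunits of TFIIIB. Bdp1 had ranks of 444, 141 and 116 in replicates 2, 3 and 4 and signals of 99.8, 103 and 125, with summits 77 to 118 bp from the gene start. Brf had ranks of 666, 133 and 232. Both genes were thus within the top regions of every replicate. Of these 14 genes 3, 4 and 3 had a top summit in replicates 2, 3 and 4 (mean 23.8%). All protein-coding genes had 9.74%, 14.7% and 11.2% there. The aminoacyl-tRNA synthetases, which charge tRNAs, had 6 of 20 with an optimal summit (30.0%), led by GluProRS (rank 438), SerRS (rank 448), IleRS (rank 1192) and MetRS (rank 2314). Their top summits numbered 3, 10 and 5, so the replicates differed widely. Of 13 genes for tRNA processing and modification 1 had one, La (rank 1429), whose protein binds the ends of new polymerase III transcripts. These lists are small and were chosen with earlier results known, so their counts are a description.

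Words under the summits were compared with those at all summits, in windows of 100 bp to either side. CTATTT was in 4 of the 13 optimal windows at tRNA genes (30.8%), against 20.4% of 2510 nuclear optimal windows. AAACTA was in 2 (15.4% against 20.8%) and GTAAACA in 1 (7.69% against 6.37%). TATCGATA, a word of the promoters of replication genes, was in 0 of 13, against 3.31%. In the 92 pooled windows within 250 bp of a tRNA gene CTATTT was in 32.6%, against 17.7% of 27362 pooled windows. AAACTA was in 19.6%, against 18.3%, and GTAAACA in 3.26%, against 5.72%. The B box word GTTCNANNC was in 35 of these windows (38.0%, against 6.13%), which often reach into the tRNA gene itself. The G and C content was 35.7% in these windows and 37.9% in all pooled windows. The windows share clusters and copies, so these shares are a description, and a word is not a site.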

How the data were processed

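The authors deposited ranked regions for each of 3 biological replicates, for the pooled replicates and as an optimal list, on dm6, each made with a control, per the deposited file listing. The control library was not analysed here, and no source used here names the mapping or region-calling tools. The value ranked is the signal that the authors' region caller gave each region, used only within 1 list. The read depth of the replicates is unknown, so the precision of a region could not be estimated, and exact 95% intervals cover counting error only. Replicates are biological per the labels.

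A summit was the deposited start plus its summit offset, in 1-based positions. Gene starts and biotypes came from Ensembl release 115 (BDGP assembly version 6.54), with 22 mitochondrial tRNA genes left out, and sequence from RefSeq. Shares of genes or of all positions were computed per replicate in Python 3.11.15 with numpy 2.4.6, pandas 2.3.3 and scipy 1.17.1, and differences were tested by an exact sign-flip permutation test over replicates, adjusted by Benjamini-Hochberg. The code was tested on simulated data. Alternatives were windows, region numbers, limits, cluster gaps, loci counted once and each replicate left out.

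The members, lists and tests were chosen with earlier results of these data known. Named were the tRNA gene nearest to each optimal region, up to 5 isolated genes with a top region in all replicates but no optimal one, 4 isolated genes with no region, the genes at each limit, the 5 largest clusters, and up to 4 bound and 2 unbound members of each other list. Families, host genes and genes met in all replicates within 250 bp were counted in full. An item of these lists is not reported here by name.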

Additional observations from a re-analysis of the deposited data

How the results depend on the processing

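The share of tRNA genes with a strong region moved with the window and the number of regions. For the optimal list the share of all tRNA genes was 3.10% within 500 bp, 13.8% within 2 kb, 2.41% with the upper 50% of regions and 63.8% with the whole pooled list, and that of isolated genes was 1.80%, 14.4%, 1.20% and 63.5% in the same order. The mean over replicates for all tRNA genes was 13.7% within 2 kb, 3.33% with 50% as many top regions and 59.4% with all regions, and for isolated genes 13.2%, 2.00% and 57.7%. Leaving out each replicate gave means of 5.86% to 9.66% for all and 5.09% to 8.98% for isolated genes. Isolated tRNA genes minus positions stayed above 0 on average under the alternatives run (1.20 points with 50% as many top regions to 32.7 with all regions, and 3.27 to 7.45 without a replicate), while 3 other differences turned round: all tRNA genes minus protein-coding genes with all regions (6.64 points), isolated genes minus genes near a TSS at 5 kb (0.892, against -5.92 at 1 kb), and clustered minus single isolated genes with 50% as many top regions (-1.68). The cause was not tested. Without a replicate these 3 ran from -4.68 to -2.56, from -1.82 to -0.453 and from 1.93 to 6.25, and clustered minus single genes from 2.94 to 6.06. The last was 0.587 with 50% as many top regions and 1.39 within 500 bp. Added after seeing the data were the window of 250 bp with all regions and positions between the outermost tRNA genes of each arm (5.41). With 3 replicates no test could pass 0.05, and regions depend on an unknown read depth and on how reads of identical genes were placed. Gene classes were compared within each replicate. No paired analysis of conditions was possible because there was 1 group.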
